A study of Mus musculus and Homo sapiens with 4 samples.

Results

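Heat shock proteins are chaperones that keep other proteins folded, and 10 of their genes were followed here in a library labelled as the prostate cancer line VCaP and in a library labelled VCaP ERα, described as the same line made to overexpress oestrogen receptor alpha (ERα). Marker genes, given below, go against the first of these labels. The genes encode 3 small heat shock proteins (HSPB1, HSPB8 and CRYAB), 3 HSP70 proteins (HSPA1A, HSPA8 and HSPA5), both cytosolic HSP90 proteins (HSP90AA1 and HSP90AB1) and the mitochondrial chaperonin pair (HSPD1 and HSPE1). Each gene was represented by the entry of highest mean value that carries its symbol, and all 10 were found among the 25932 entries of the human data, on 1 entry each. The genes were chosen by their RPKM values in these same libraries, since earlier results were known, that of HSPB1 among them, so that every difference between the VCaP libraries given here is a description without a test.

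The VCaP and VCaP ERα groups hold 1 library each, labelled as cells grown in DMEM with foetal bovine serum, at passages 5 to 6 for VCaP and 4 to 5 for VCaP ERα. Ribosomal RNA was removed from total RNA and the strand was kept. The series also holds 1 library of wild-type (WT) mouse embryonic fibroblasts (MEFs) and 1 of NEAT1 knockout (KO) MEFs, both from C57BL/6 E13.5 embryos, at passages 2 to 3 and from poly-A RNA. How the ERα-expressing line was selected, and whether it is 1 clone, is not given in the sources used here. With 1 library per group there is no spread between replicates, and no difference below has a replicate check.

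Small heat shock proteins hold unfolding clients without using ATP. HSP70 proteins bind and release them in an ATP cycle that J proteins start and nucleotide exchange factors such as the BAG proteins reset, and HSP90 completes the folding of signalling proteins, steroid receptors included. The chaperonin of HSPD1 and HSPE1 folds proteins inside mitochondria. Some of these genes, HSPA1A and HSPB1 for example, are induced by heat shock factor 1 under stress, whereas HSPA8 and HSP90AB1 are made at all times, and HSPB1 is also known as an oestrogen-responsive gene of breast cancer cells.

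ESR1, the gene of ERα, had 15.7 RPKM (reads scaled to entry length and library size) in VCaP and 209 RPKM in VCaP ERα, in the direction of the labels. The cell type labels were checked against marker genes, and the library labelled VCaP went against its label. All 8 prostate luminal markers examined were low there, at 0 to 8.18 RPKM (18.4 RPKM in sum), against 3.16 to 694 RPKM in VCaP ERα (1729 RPKM in sum). KLK2, HOXB13 and FOLH1 had 0.0264, 0.0479 and 0 RPKM in the library labelled VCaP. The 6 luminal breast markers showed the reverse, each lower in VCaP ERα, with a sum of 1768 RPKM in the library labelled VCaP against 16.2 RPKM in VCaP ERα. TFF1, at 1596 RPKM, made up most of the first sum. TFAP2A and PGR were low in the library labelled VCaP too, at 1.28 and 3.14 RPKM, while GATA3, MLPH and TRPS1 had 90.5, 46.2 and 30.7 RPKM there. Of the 4 basal epithelial markers 2 were lower in VCaP ERα, KRT17 (38.9 and 0.774 RPKM) and TP63 (3.79 and 0.0400 RPKM), and 2 were higher, KRT5 (0.0259 and 0.623 RPKM) and KRT14 (0 and 1.19 RPKM). VCaP below stands for the library so labelled. These markers differed between the libraries alongside every value below, their part in the results was not tested, and a culture of other cells cannot be told apart from an effect of ERα. In such bulk libraries, fewer cells of a type and less RNA per cell cannot be told apart either.

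Differences between libraries are given as a log2 ratio, the VCaP ERα value plus 1 RPKM over the VCaP value plus 1 RPKM, which understates changes of low values. Taken over 9754 entries that reached 1 RPKM in each library, this ratio had a median of -0.59, and a gene that kept its place among expressed genes sits near that value and not near 0. On this scale HSPB1, HSPB8 and HSPA1A had log2 ratios below -2, the size of difference used in the study, and 0 of the 10 genes lay above 2. That is 3 of 10 genes below -2, where 6.56% of all entries, 12.2% of entries with at least 1 RPKM in a library and 24.1% of those with at least 10 RPKM did so. Of the 10 genes, 9 reached 10 RPKM in a library, and against the last of these shares the count does not set the genes apart. Above 2 the share was 2.27% of all entries. The other 7 genes included 6 with a log2 ratio between -1 and 1, where 48.7% of entries with at least 1 RPKM in a library lay. The median of the 10 log2 ratios was -0.22, beside -0.97 over entries with at least 10 RPKM in a library and 0 over all entries, and 5 genes were higher and 5 lower in VCaP ERα, where 71.9% of entries with at least 10 RPKM in a library were lower.

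**Figure D1:**
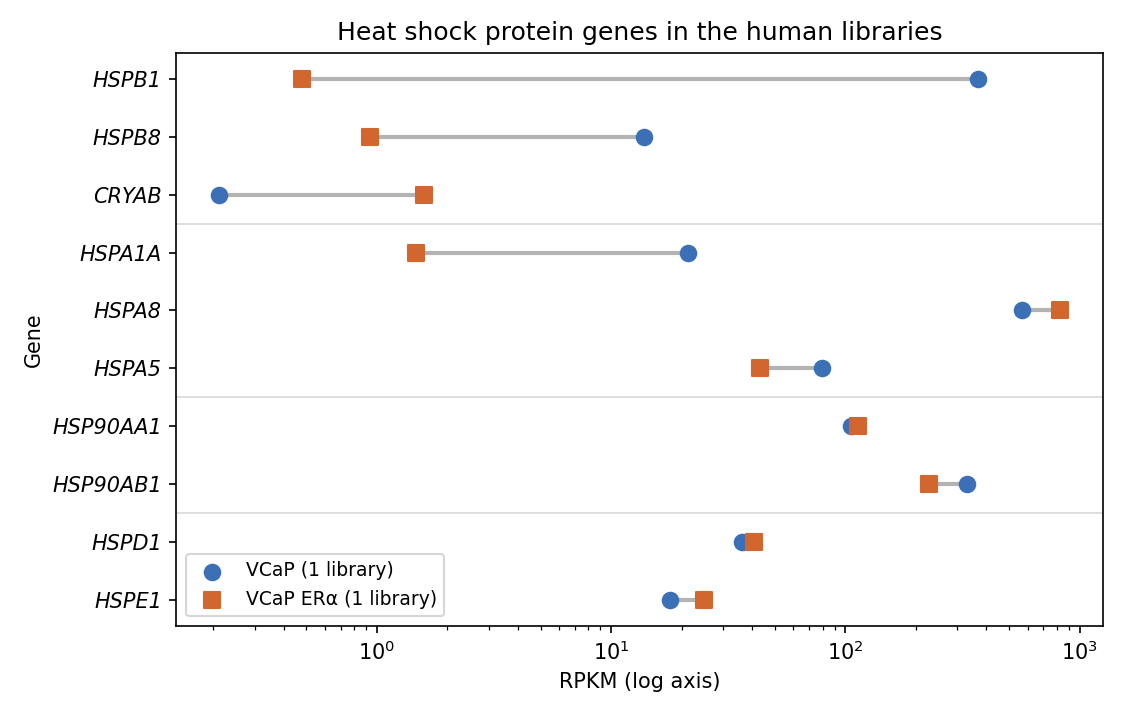
RPKM of the 10 heat shock protein genes (rows) on a log axis, with a circle for the VCaP library and a square for the VCaP ERα library, joined by a grey line; there are no error bars because each group is 1 library. HSPB1 crosses the whole plot from 369 to 0.481 RPKM and HSPB8 and HSPA1A shift left, CRYAB shifts right at a low level, and the symbols of the HSP90 and chaperonin genes lie close together.

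The largest difference among the 10 genes was that of a small heat shock protein. HSPB1 (HSP27, chromosome 7, 75769859 to 75771546), a chaperone also acting on actin filaments, had 369 RPKM in VCaP against 0.481 RPKM in VCaP ERα. It was the entry ranked 79 by level in VCaP, and it ranked 15539 in VCaP ERα, a change of 768-fold between the RPKM values. Its log2 ratio of -7.97 was the fourth lowest of all 25932 entries and stayed between -9.31 and -7.38 under every pseudocount and scaling tried.

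HSPB8 (HSP22; chromosome 12, 118100978 to 118116934) works with the exchange factor BAG3 to pass damaged proteins to autophagy. Its level was 13.8 RPKM in VCaP against 0.938 RPKM in VCaP ERα, with a log2 ratio of -2.93. BAG3 itself, from the cochaperone list, had 25.3 and 1.72 RPKM, a log2 ratio of -3.27. The HSPB8 level was therefore 0.545 of the BAG3 level in VCaP and 0.546 of it in VCaP ERα, a ratio looked at after both values had been seen.

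CRYAB (αB-crystallin; chromosome 11, 111284560 to 111287683), best known from lens and muscle, went the other way at a low level, from 0.211 RPKM in VCaP to 1.59 RPKM in VCaP ERα, with a log2 ratio of 1.10. The order of the 3 genes was thus turned round. HSPB1 stood 1752-fold above CRYAB in VCaP, whereas CRYAB stood 3.32-fold above HSPB1 in VCaP ERα. Together the small heat shock proteins had 383 RPKM, or 24.9% of the sum of the 10 genes, in VCaP and 3.01 RPKM, or 0.235% of that sum, in VCaP ERα. These within-library ratios and shares do not depend on how the libraries are scaled to each other. The order in VCaP ERα, however, rests on levels from 0.481 to 1.59 RPKM, and the 1752-fold ratio on 0.211 RPKM of CRYAB. At such levels the unknown depth limits precision.

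Outside the 10 genes, 8 further small heat shock protein genes were examined, and their levels were low in both libraries. The highest was HSPB11, with 2.30 RPKM in VCaP against 2.83 RPKM in VCaP ERα. None of the 8 passed 2 or -2, where 2.27% of all entries lay above 2 and 6.56% below -2. The 8 log2 ratios ran from 0.018 (HSPB2) to 1.08 (HSPB7, 0.0432 to 1.21 RPKM), with a median of 0.27. The muscle genes HSPB6, at 0 and 1.05 RPKM, and HSPB7 and the lens gene CRYAA, at 0 and 1.10 RPKM, were the only ones above 1. Rises from 0 were common in these data, since 8757 of all entries were listed at 0 in VCaP and 3607 in VCaP ERα. Small rises such as these, or that of CRYAB, therefore do not set the genes apart. No other small heat shock protein gene thus stood near the VCaP level of HSPB1 in VCaP ERα.

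HSPA1A, the stress-inducible form of the cytosolic HSP70 proteins, stands on an entry that carries HSPA1A and HSPA1B (chromosome 6, 31891299 to 31893698), and these near-identical copies can share reads. This entry had 21.3 RPKM in VCaP against 1.47 RPKM in VCaP ERα, with a log2 ratio of -3.17. A second entry that carries HSPA1B only (31903491 to 31906010) had 10.8 and 2.66 RPKM, a log2 ratio of -1.68. It was lower in VCaP ERα too but did not pass -2. The neighbouring testis gene HSPA1L, whose entry overlaps that of HSPA1A and HSPA1B, had 0.489 and 1.38 RPKM.

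HSPA8 (HSC70; chromosome 11, 122433410 to 122438054), the constitutive form, was the most abundant of the 10 genes in both libraries. It had 567 RPKM in VCaP against 829 RPKM in VCaP ERα, ranks 44 and 23 of all entries, with a log2 ratio of 0.55. Against the median of expressed entries HSPA8 stood at 1.14. For each unit of the HSPA1A entry the VCaP library held 26.6 units of HSPA8 and the VCaP ERα library 564 units. The latter ratio rests on 1.47 RPKM of the HSPA1A entry, where the unknown depth limits precision. Short entries inside the HSPA8 span, LOC85390 (1.87 and 2.02 RPKM) and LOC85391 (5.63 and 7.42 RPKM), were much lower than HSPA8.

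HSPA5 (BiP; chromosome 9, 127036953 to 127043430), the HSP70 protein of the endoplasmic reticulum, had 79.9 RPKM in VCaP against 43.2 RPKM in VCaP ERα. Its log2 ratio of -0.87 was close to the median of expressed entries. HSP90B1, the HSP90 protein of the same compartment, was higher in VCaP ERα, from 43.9 to 185 RPKM, a log2 ratio of 2.05. HSPA5 was thus 1.82-fold above HSP90B1 in VCaP and at 0.234 of its level in VCaP ERα. The 3 HSP70 genes together made up 43.4% of the sum of the 10 genes in VCaP and 68.0% in VCaP ERα. Among them only HSPA8 was higher in VCaP ERα. The sum of the 10 genes also held 369 RPKM of HSPB1 in VCaP and 0.481 RPKM in VCaP ERα, which by itself raises the share of every other gene.

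The cytosolic HSP90 genes both had log2 ratios between -1 and 1. HSP90AA1, the more inducible form (chromosome 14, 101616828 to 101675839), had 106 RPKM in VCaP against 113 RPKM in VCaP ERα, with a log2 ratio of 0.092. HSP90AB1, the constitutive form (chromosome 6, 44322827 to 44329592), had 329 and 229 RPKM, a log2 ratio of -0.52. Against the median of expressed entries HSP90AA1 was higher, at 0.68, and HSP90AB1 stood at 0.066. HSP90AB1 was the higher of the pair in both libraries, 3.10-fold above HSP90AA1 in VCaP and 2.02-fold in VCaP ERα. Their sum was 28.3% and 26.6% of the sum of the 10 genes. The entry of a processed copy, HSP90AB3P on chromosome 4, looked at after its values were seen, was listed at 183 and 109 RPKM. How reads that match several copies were counted is not given in the sources used here, so the HSP90AB1 and HSP90AB3P levels are uncertain.

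The mitochondrial chaperonin genes lie next to each other on chromosome 2, with 121 bp between the entries. HSPD1 (HSP60; 198059553 to 198073243), the barrel subunit, had 36.2 RPKM in VCaP against 40.8 RPKM in VCaP ERα, with a log2 ratio of 0.17. HSPE1 (HSP10; 198073365 to 198076416), its lid, had 17.8 and 24.9 RPKM, a log2 ratio of 0.46. HSPD1 was 2.04-fold above HSPE1 in VCaP and 1.64-fold in VCaP ERα. Against the median of expressed entries both genes were higher, at 0.76 and 1.05.

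**Figure D2:**
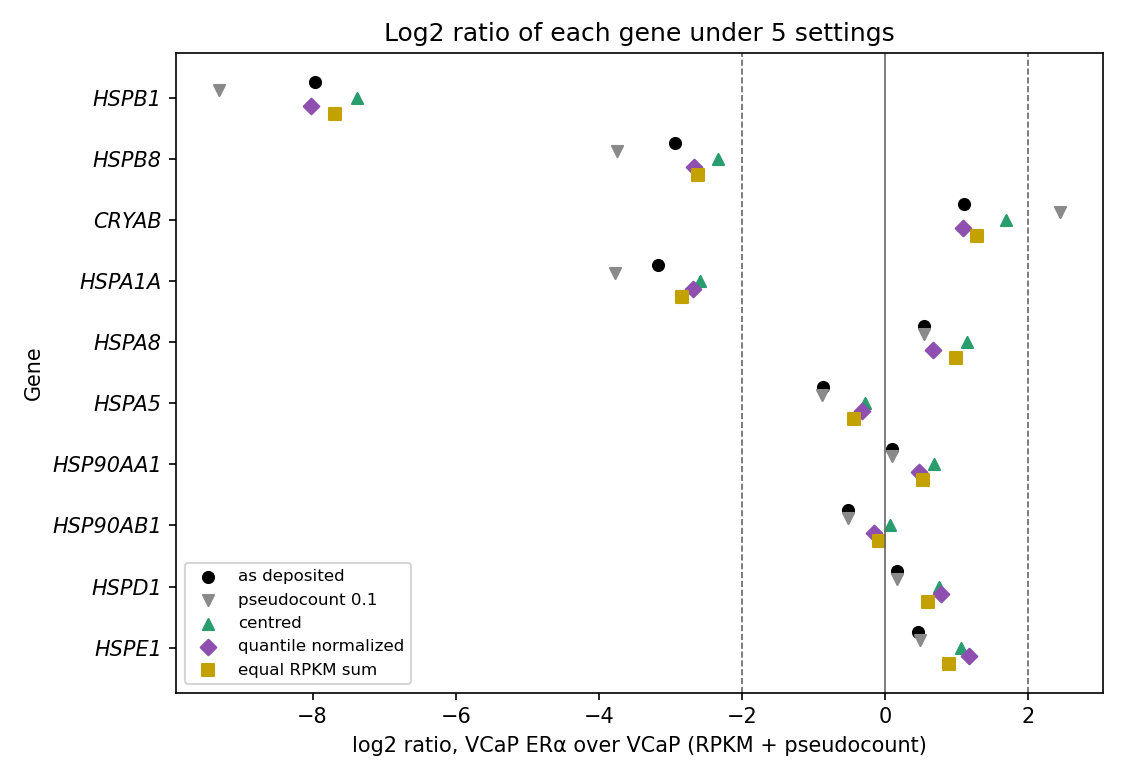
Log2 ratio of VCaP ERα over VCaP (horizontal axis) for each of the 10 genes under 5 settings: RPKM as deposited with a pseudocount of 1, a pseudocount of 0.1, centring on the median of expressed entries, quantile normalization and an equal RPKM sum; dashed lines mark -2 and 2. HSPB1, HSPB8 and HSPA1A lie left of -2 under each setting, CRYAB passes 2 only with the pseudocount of 0.1, and HSP90AB1 sits on either side of 0.

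The order of the 10 genes by RPKM also showed where the libraries parted. In VCaP it ran from HSPA8 through HSPB1, HSP90AB1, HSP90AA1, HSPA5, HSPD1, HSPA1A, HSPE1 and HSPB8 to CRYAB. In VCaP ERα it ran from HSPA8 through HSP90AB1, HSP90AA1, HSPA5, HSPD1, HSPE1, CRYAB, HSPA1A and HSPB8 to HSPB1. When HSPB1, HSPA1A, HSPB8 and CRYAB are left aside, the remaining 6 genes stood in the same order in both libraries. The genes left aside are those with log2 ratios outside -1 to 1, so the kept order of the rest is not a separate result. Which neighbours in this order differ beyond error cannot be said without replicates. The 10 genes summed to 1540 RPKM in VCaP against 1284 RPKM in VCaP ERα, which was 0.575% and 0.652% of all RPKM.

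The rest of the chaperone network was examined through lists of partner genes. Of 103 further genes on entries of their own, 5 lay above 2 and 9 below -2, or 4.85% and 8.74%. Of all entries with at least 1 RPKM in a library, 4.21% lay above 2 and 12.2% below -2. The median of the 103 log2 ratios was -0.40 and turned positive under each scaling, to 0.19 after centring, 0.12 after quantile normalization and 0.030 with an equal RPKM sum. After centring or quantile normalization 8 genes lay above 2 and 4 below -2. Those above 2 then included ST13, CCT8 and HERPUD1, at 2.11, 2.46 and 2.25 after centring. The 4 genes below -2 under each setting were DNAJC1, DNAJC15, CDC37 and BAG3, and the 5 above 2 under each setting were HSPA13, HSP90B1, DNAJC10, FKBP5 and CHORDC1.

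J proteins, which deliver clients to HSP70 and trigger its ATPase, had 4 of 24 genes below -2 and 1 above 2. Beside this, 12.2% of entries with at least 1 RPKM in a library lay below -2 and 4.21% above 2. With at least 10 RPKM in a library, 24.1% of entries lay below -2. The median of the J proteins was -0.43, or 0.16 after centring. DNAJB1 (HSP40), the stress-inducible partner of HSPA1A, had 100.3 RPKM in VCaP against 17.0 RPKM in VCaP ERα, with a log2 ratio of -2.49 that became -1.90 after centring. DNAJC15, of the inner mitochondrial membrane, had 16.1 and 0.0341 RPKM, a log2 ratio of -4.04. DNAJC1, of the endoplasmic reticulum, had 35.4 and 3.43 RPKM. DNAJC5, of secretory vesicles, had 42.8 and 9.49 RPKM, with a log2 ratio of -2.06 that did not stay below -2 after centring. DNAJC10, a disulphide reductase of the endoplasmic reticulum, was the J protein above 2, from 9.01 to 42.9 RPKM. DNAJA1, the J protein with the highest mean level, had 50.1 and 123 RPKM, a log2 ratio of 1.28.

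Among the cochaperones of HSP70 and HSP90, 20 of 21 genes were found, 3 of them below -2 and 2 above 2. The shares to set beside them are the same, 12.2% and 24.1% below -2 and 4.21% above 2. The median of the cochaperones was -0.46, or 0.13 after centring. CDC37, which loads protein kinases onto HSP90, had 86.9 RPKM in VCaP against 4.71 RPKM in VCaP ERα, with a log2 ratio of -3.94. STUB1 (CHIP), a ubiquitin ligase that acts on HSP70 clients, was at the threshold with -2.004, from 37.7 to 8.65 RPKM, and lay at -1.41 after centring. FKBP5, an immunophilin of steroid receptor complexes and a known androgen receptor target, had the highest log2 ratio of the network at 5.57, from 0.999 to 94.2 RPKM. CHORDC1, an HSP90 partner, had 1.54 and 18.3 RPKM, a log2 ratio of 2.92. STIP1 (HOP), which joins HSP70 to HSP90, had 56.7 and 78.1 RPKM, a log2 ratio of 0.46.

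Of the other HSP70 and HSP110 genes, 12 stood on entries of their own, with 1 above 2 and 0 below -2. Among entries with at least 1 RPKM in a library 4.21% lay above 2 and 12.2% below -2. Counts this small do not set a list apart from these shares. The median of the 12 log2 ratios was -0.57, or 0.022 after centring. HSPA13, a microsomal HSP70 protein, had 8.51 RPKM in VCaP against 77.1 RPKM in VCaP ERα, with a log2 ratio of 3.04. HSPA9 (mortalin), the mitochondrial HSP70 protein and the most abundant of the list, had 76.0 and 110.1 RPKM, a log2 ratio of 0.53, and HSPA14 had the lowest at -1.60, from 8.36 to 2.09 RPKM. HSP90B1 and TRAP1 lay on opposite sides: TRAP1, the mitochondrial HSP90 protein, had 32.03 and 6.44 RPKM, a log2 ratio of -2.15, or -1.56 after centring.

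The TRiC chaperonin, which folds actin and tubulin, had 0 of 8 subunit genes past 2 in either direction and a median of 0.087, between CCT3 (-1.30, 228 to 92.4 RPKM) and CCT8 (1.87, 29.3 to 109.9 RPKM). After centring CCT8 lay above 2, at 2.46, and CCT3 at -0.71. In the endoplasmic reticulum list 15 of 16 genes were found. There HSP90B1 lay above 2 and SIL1, the exchange factor of HSPA5, below -2, from 47.5 to 9.24 RPKM (-2.24, or -1.65 after centring). Of the lectin chaperones, CALR went from 357 to 209.5 RPKM, a log2 ratio of -0.77, or -0.18 after centring. CANX went from 141 to 345 RPKM, a log2 ratio of 1.28, or 1.87 after centring. The mitochondrial list had TRAP1 as 1 gene of 13 below -2 and a median of -0.71. Beside the counts of these lists, 4.21% of entries with at least 1 RPKM in a library lay above 2 and 12.2% below -2.

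The regulators examined all stayed between -2 and 2. Only 4.21% of entries with at least 1 RPKM in a library lay above 2 and 12.2% below -2. HSF1, the main heat shock factor, had 9.81 RPKM in VCaP against 2.92 RPKM in VCaP ERα, with a log2 ratio of -1.46, and HSF2 had 2.77 and 6.85 RPKM, a log2 ratio of 1.06. HSBP1, which binds HSF1, was the highest of this list with 62.0 and 81.1 RPKM. The other list held 6 regulators of the unfolded protein response. XBP1, a factor of this response that luminal breast cells also express strongly, was the highest and the lowest in log2 ratio at -1.77, from 623 to 182 RPKM, and DDIT3 had the highest at 0.43.

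**Figure D3:**
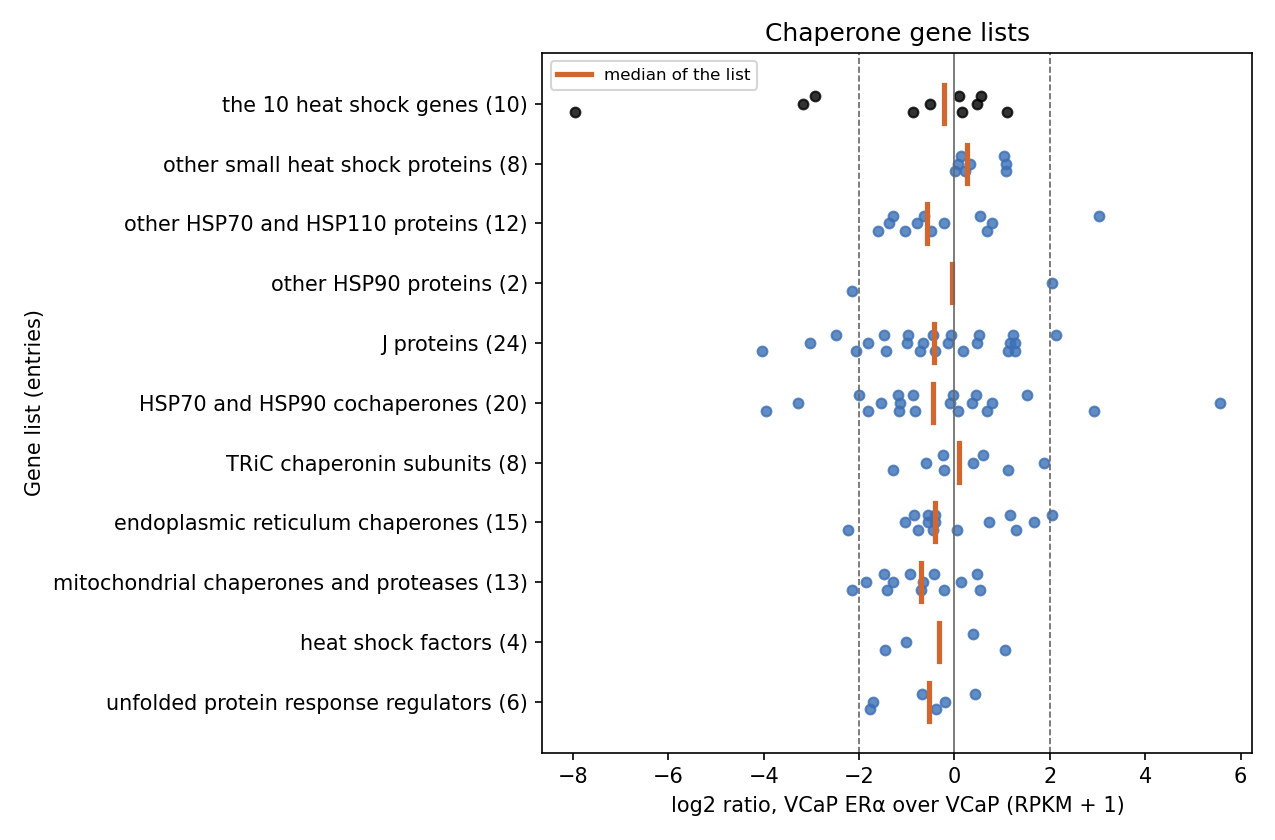
Log2 ratio of VCaP ERα over VCaP with a pseudocount of 1 (horizontal axis) for the 10 heat shock genes (black) and the other chaperone lists (blue, 1 point per entry, number of entries in parentheses, some genes in 2 lists); orange bars are list medians and dashed lines mark -2 and 2. HSPB1 at -7.97 lies below every other point, FKBP5 at 5.57 above every other point, and the list medians run from -0.71 to 0.27.

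In the fibroblasts the comparison was of WT and NEAT1 KO, and mouse genes were matched through the human symbols paired with them in the data. Neat1 had 29.5 RPKM in WT and 2.01 RPKM in KO, in the direction of the labels. None of the 10 mouse genes passed 2 or -2, where 0.24% of 23329 entries did, and the lowest and highest log2 ratios of KO over WT were -0.51 and 0.49. Their median was -0.26, beside -0.059 over entries that reached 1 RPKM in each library. Hspb1 had 54.0 RPKM in WT and 40.6 RPKM in KO, Hspb8 had 58.7 and 47.3 RPKM, and Cryab had 109 and 88.3 RPKM. All 3 small heat shock genes were thus clearly detected in both fibroblast libraries.

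Hspa1a, the stress-inducible gene, was the lowest of the 10 in both, with 3.21 RPKM in WT and 4.04 RPKM in KO. Hspa8 had 209.9 and 181 RPKM, Hsp90aa1 had 55.6 and 40.7 RPKM, and Hsp90ab1 had 855 and 757 RPKM. Hspa5 had 533 and 751 RPKM, the highest log2 ratio of the 10 at 0.49. Of mouse entries with at least 1 RPKM in a library 39.2% were higher in KO, and of the 10 genes 3 were. In the endoplasmic reticulum list 13 of 16 genes were higher in KO and in the unfolded protein response list 5 of 6, whereas it was 9 of 24 J proteins, 6 of 12 other HSP70 and HSP110 genes, 4 of 21 cochaperones, 3 of 13 mitochondrial genes, 2 of 8 other small heat shock genes (4 lower, and Hspb3 and Cryaa listed at 0 in both), 2 of 4 heat shock factors, 0 of 8 TRiC subunits and 0 of 2 other HSP90 genes. These counts moved with scaling: over centring, quantile normalization and an equal RPKM sum the endoplasmic reticulum list had 12 to 14 genes higher in KO, the cochaperones 1 to 8 and the TRiC subunits 0. Some genes count in 2 lists. Dnajb9, Dnajb11 and Dnajc3, also J proteins, and Hyou1, also an HSP110 gene, were in the endoplasmic reticulum list and higher in KO. No gene of these lists passed 2 or -2. The list medians lay between -0.16 and 0.28.

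**Figure D4:**
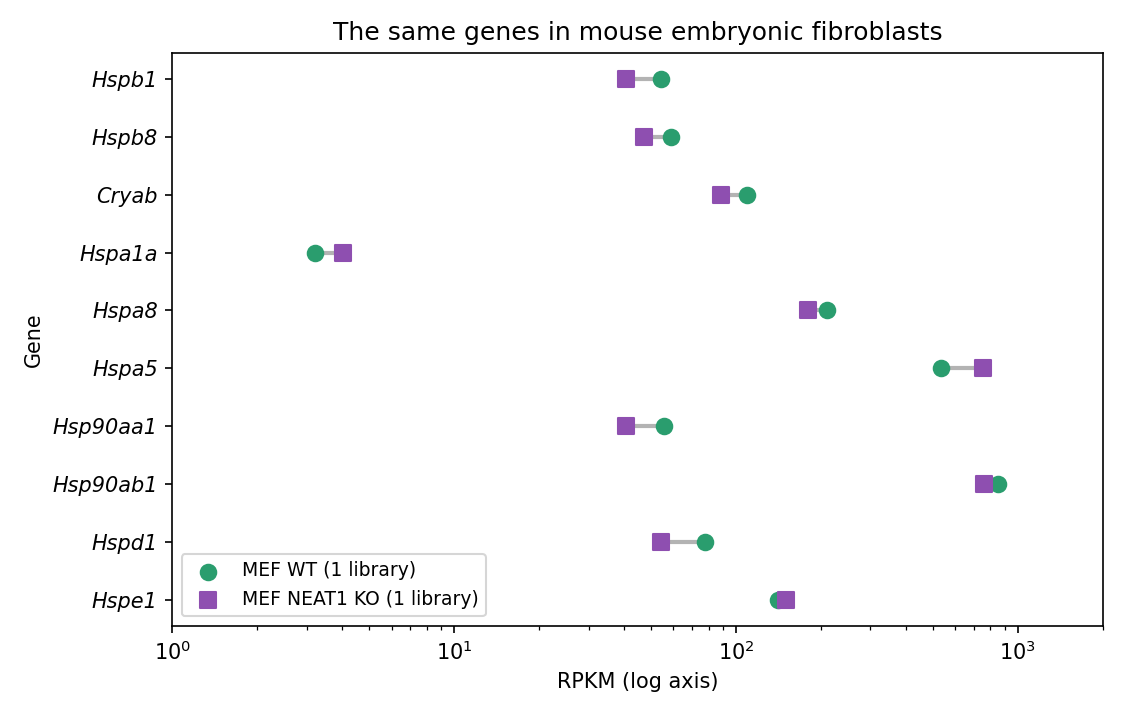
RPKM on a log axis for the 10 mouse genes (rows) in MEF WT (circles) and MEF NEAT1 KO (squares), 1 library each and so without error bars. The symbols of each gene lie close together, from Hspa1a at 3.21 and 4.04 RPKM to Hsp90ab1 at 855 and 757 RPKM, with Hspb1, Hspb8 and Cryab between 40.6 and 109 RPKM.

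Hspd1 and Hspe1 had 77.4 and 141 RPKM in WT and 54.0 and 151 RPKM in KO, so that Hspe1 was the higher of the pair in the fibroblasts. The mouse genes start on opposite strands of chromosome 1, and the stretch between them holds a run of heat shock factor motifs. This stretch is shown because the same bases serve as the upstream sequence of both chaperonin genes. RefSeq promoter sequences (GRCm38.p6, 250 bases before to 50 after a start) were matched by symbol for 6 of the 10 mouse genes, on 7 starts. The heat shock element was searched as GAANNTTCNNGAA or TTCNNGAANNTTC, which are each other's reverse complement. It was found in 2 of the 7 promoters, those of Hspe1 and of 1 Hspd1 start, and in 0.603% of 32851 promoters. The shorter element, GAANNTTC or TTCNNGAA, stood in 15.1% of promoters and in 5 of these 7, those of Hspb1, Hspb8, Hspa1a, Hspe1 and 1 of the Hspd1 starts, but not in that of Hspa5 or of the other Hspd1 start. For both elements the Hspe1 promoter overlaps that of the Hspd1 start with a match, so 1 stretch of bases counts for both genes. Both matches of the longer element are the same bases, chr1:55088053-55088082, read from either strand, from -95 to -66 of the Hspe1 start and from -150 to -121 of an Hspd1 start. Capitals mark the bases of the overlapping matches, and these letters are a description, not a measured site.
Hspe1, + strand: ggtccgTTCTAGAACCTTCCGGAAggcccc
Hspd1, - strand: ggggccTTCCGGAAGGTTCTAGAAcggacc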

How the data were processed

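RPKM values (reads scaled to entry length and to all mapped reads) were computed and deposited by the authors for 25932 human and 23329 mouse entries, 1 library per group, with no normalization between libraries stated. The submitters' processing notes name CASAVA 1.8 and the builds hg18 and mm10. Printed human coordinates are those of the files and mouse promoters are from GRCm38.p6. The aligner, the handling of reads that match several places and the total reads are not given in the sources used here. In 2146 entries listed above 0 but under 0.5 RPKM in each human library the commonest ratio (0.974) recurred in 38 entries and the next (0.764) in 37, which did not give the relative depth, so no interval or detection floor was computed.

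Log2 ratios used a pseudocount of 1. Entries above 2 or below -2 were counted, and no test was made because each group holds 1 library. A gene was represented by its entry of highest mean RPKM. The 10 genes and the gene lists were chosen with earlier results of these data known. All 10 genes were named. For each other list the genes past 2 or -2 were named, or else the highest and lowest log2 ratio and the highest mean level. For each of the 10 genes the nearest entry on each side with at least 1 RPKM in a library was taken. BAG6 and MANF matched no human symbol in the data and were not analysed here. Alternative settings were a minimum of 1 RPKM in a library, a pseudocount of 0.1, centring on the median of expressed entries, quantile normalization, the sum over all entries of a symbol and, chosen after seeing the data, an equal RPKM sum and the sum of both HSPA1A and HSPA1B entries. A log2 ratio that moved by less than 0.585, or a count within 1.5 times, was taken as the same. The calculation was tested on simulated data with an assumed depth, in which only entries of higher mean level were changed, by a large known factor. That simulation did not cover changes of genes low in both libraries or a shift between libraries. The software was pandas 2.3.3, numpy 2.4.6 and matplotlib 3.10.9 under Python 3.11.15.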

Additional observations from a re-analysis of the deposited data

How the results depend on the processing

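HSPB1, HSPB8 and HSPA1A stayed below -2 under each alternative run, and 9 of the 10 genes kept their sign. The exception was HSP90AB1, at 0.066 after centring. With a pseudocount of 0.1 the count above 2 was 1 (CRYAB, 2.45), and with both HSPA1A and HSPA1B entries summed the log2 ratio of HSPA1A was -2.69. Centring, which adds 0.59 to every log2 ratio, moved the median of the 10 genes from -0.22 to 0.37 and the medians of the other lists to 0.86 (other small heat shock proteins), 0.022 (other HSP70 and HSP110), 0.54 (other HSP90), 0.16 (J proteins), 0.13 (cochaperones), 0.68 (TRiC), 0.18 (endoplasmic reticulum), -0.12 (mitochondrial), 0.27 (heat shock factors) and 0.046 (unfolded protein response). Quantile normalization moved the medians to 0.58 for the other HSP90 genes, 0.27 for J proteins, 0.26 for the endoplasmic reticulum, -0.0028 for the mitochondrial list and 0.13 for the unfolded protein response. The median of the other small heat shock proteins was 1.38 with a pseudocount of 0.1 and 1.05 for entries with at least 1 RPKM in a library. Summing all entries of a symbol changed no value of the 10 genes, since each stands on 1 entry. No paired analysis was possible because each group holds 1 library, and for the same reason no replicate could be left out. The direction of a list median therefore depends on the scaling. The levels of HSPB1, HSPB8 and HSPA1A in VCaP ERα and of CRYAB in both libraries lie at 1.59 RPKM or below, where the unknown depth limits precision.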

Other observations

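The nearest expressed entries on either side of each of the 10 heat shock genes were compared in the same way. HSPB1 stood between FLJ37078, with 1.64 RPKM in VCaP against 1.17 RPKM in VCaP ERα, and YWHAG, which encodes a 14-3-3 protein, with 55.02 and 30.7 RPKM. Their log2 ratios were -0.28 and -0.82, against -7.97 for HSPB1 itself. HSPB8 stood between KIAA1853, with a log2 ratio of 1.10, and PRKAB1, a subunit of AMP-activated kinase, with -1.67 at a distance of 473205 bp.

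Beside the HSPA1A entry, LSM2, a gene of RNA splicing, had 26.7 RPKM in VCaP against 7.12 RPKM in VCaP ERα, with a log2 ratio of -1.77, close to the -1.68 of the second HSPA1B entry on the other side. HSP90AA1 lay between DYNC1H1 (-1.86), the dynein heavy chain, and WDR20 (-0.91), and HSPA5 between RABEPK (-0.40) and GAPVD1 (-1.76). HSP90AB1 stood between SLC29A1 (0.13) and SLC35B2 (-0.91). HSPA8 had no neighbour of comparable level, with C11orf63 at 0.833 and 1.11 RPKM and SCN3B at 0 and 1.23 RPKM. CRYAB stood between C11orf1 (0.68) and C11orf52 (-0.22). On chromosome 2 COQ10B, on the HSPD1 side, was at -1.11, and MOBKL3, beyond HSPE1, at 1.70, with the chaperonin pair between them at 0.17 and 0.46.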
